A study of Mus musculus with 8 samples.

Results

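Taf1d, Ptcd3, Eif4a1, Tpt1, Gas5 and Snhg1 are mouse genes whose introns hold small nucleolar RNAs (snoRNAs), and they are described here in ribosome-bound and total RNA of the medial prefrontal cortex (mPFC). Their members on the array were all probe sets annotated with exactly 1 gene symbol that is 1 of the 6 names, each kept separate, which gave 18 of 41345 probe sets, in 5 of 22180 genes. Taf1d had 11 of them, Ptcd3, Eif4a1 and Tpt1 had 2 each and Snhg1 had 1. Gas5 had 0, because its only probe set also carries the symbol of another gene, and 2 further probe sets of Taf1d were left out for the same reason. The genes were picked because probe sets of the same gene disagreed between pull-down and input, so every pull-down minus input value of a member is a description without a test.

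The mice carried a Cre-dependent ribosome tag with green fluorescent protein (GFP), and a canine adenovirus bringing Cre recombinase (CAV2-Cre) was injected in the brain region labelled NAC or VTA. This virus enters axon endings and travels to the cell body, which restricts the tag to mPFC cells with axons in the injected region. The 4 groups of 2 arrays were RNA pulled down with GFP-trap from NAC-projecting cells, RNA pulled down with GFP-trap from VTA-projecting cells, and the input RNA of each without a pull-down, labelled NAC and VTA below. All 4 groups share the tag and the virus, and the sources used here do not give the promoter of the tag, the age of the mice or whether an array stands for 1 animal or a pool. The p-values therefore rest on a spread between arrays that may be technical.

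Most vertebrate snoRNAs are not transcribed from promoters of their own. They are cut out of the introns of a host gene after splicing, and stay in the nucleolus, where they guide ribose methylation and pseudouridylation of ribosomal RNA, while the spliced exons of the same transcript leave for the cytoplasm. Many hosts code for proteins of ribosome production and translation, whereas others, such as Gas5 and Snhg1, are long noncoding RNAs whose spliced product is carried to ribosomes and broken down quickly. Host transcripts often begin with a 5′ terminal pyrimidine tract, a feature of genes whose translation follows growth signals.

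In RefSeq's table of mouse genes (GRCm38.p6), 27 snoRNA genes lay within the bounds of the 6 genes. Gas5 and Snhg1 held 8 each, Taf1d held 6, Eif4a1 held 3, and Ptcd3 and Tpt1 held 1 each. The strand of these snoRNA genes was not checked. The array annotation used here gives a symbol and no position for a probe set, so whether a probe set reads exons, an intron or an intronic snoRNA was not tested.

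The bases around the annotated starts are shown because the pyrimidine tract is a feature that the choice of these genes did not use. Each line gives 60 bases from RefSeq (GRCm38.p6), 5′ to 3′ on the strand of the gene, with 20 bases before the annotated start. Capitals mark the longest unbroken run of C and T that begins within 20 bases of that start.
Snhg1, chr19:8723467-8723526, plus strand: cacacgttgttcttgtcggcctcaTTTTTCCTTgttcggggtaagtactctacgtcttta
Eif4a1, chr11:69672384-69672443, minus strand: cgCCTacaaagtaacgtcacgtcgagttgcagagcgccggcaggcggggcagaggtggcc
Tpt1, chr14:75845236-75845295, plus strand: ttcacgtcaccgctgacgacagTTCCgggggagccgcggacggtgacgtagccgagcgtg
Ptcd3, chr6:71908723-71908782, minus strand: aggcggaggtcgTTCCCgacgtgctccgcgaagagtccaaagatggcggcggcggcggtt
Taf1d, chr9:15306194-15306253, plus strand: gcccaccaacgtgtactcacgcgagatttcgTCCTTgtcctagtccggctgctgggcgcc
Snhg1 had a run of 9 bases, and 11.5% of the 32851 promoters of the table had a run at least as long. The runs of Taf1d and Ptcd3 had 5 bases, which is the median over all promoters, and those of Tpt1 and Eif4a1 had 4 and 3 bases. Counted from the annotated start as base 1, the runs began at base 5 in Snhg1, 3 in Tpt1 and 12 in Taf1d. Those of Ptcd3 and Eif4a1 began before the start, at -8 and -18. None of these runs began at the annotated start itself, where a terminal tract would lie. Gas5 had runs of 6 and 3 bases at its 2 annotated starts. A run is a description of these windows, and transcripts may begin at other bases than the annotated ones.

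The arrays correlated at 0.981 to 0.991 within groups over all probe sets, and those of 2 groups at 0.973 to 0.988. Values are on the log2 scale, and the array medians over the 23521 probe sets with 1 symbol lay at 5.81 to 5.90. Rpl10a, a protein gene of the large ribosomal subunit, had 12.05 and 12.12 in NAC pull-downs and 11.94 and 11.95 in VTA pull-downs, against 10.92 and 10.94 in NAC inputs and 9.87 and 10.35 in VTA inputs. It rose by 1.49 (SE 0.10, limma adjusted p with Benjamini-Hochberg = 3.7e-05). As for the labelled tissue, 5 of 5 glutamatergic neuron markers passed the filter on low values, with a mean level of at least 9.07. Of those 5 markers none rose and 2 fell. Of the others, 4 of 6 GABAergic interneuron, 4 of 5 astrocyte, 3 of 4 oligodendrocyte, 4 of 5 microglial and 1 of 3 endothelial markers fell and none rose. Over all tested probe sets 30.2% fell, and the lists are too short to set 1 cell type apart from another by these counts. The mean level of the 5 astrocyte markers was 8.40 to 8.77 in pull-downs and 8.94 to 9.25 in inputs. The part of these cells in the values of the host genes was not tested, and in bulk RNA fewer cells of a type and less RNA per cell cannot be told apart.

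Tests were run on the 12445 probe sets that were above the array's median on 2 or more of the 8 arrays. Of the 18 members 10 passed, and the 8 others were all probe sets of Taf1d. The inputs alone brought Taf1d 17514828 past this filter, and the pull-downs alone brought Snhg1 17357126 past it. The 4 pull-downs lay below all 4 inputs in 4 of the 18 members, against 13.7% of all probe sets with 1 symbol, and above all inputs in 1, against 7.58%. The choice of the genes used this contrast, so nothing is read from these counts. Over all tested probe sets 40.5% passed in limma between pull-down and input (10.3% higher and 30.2% lower). The calls were 1278 higher and 3762 lower as deposited, and 1784 higher and 2696 lower after quantile normalization.

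**Figure D1:**
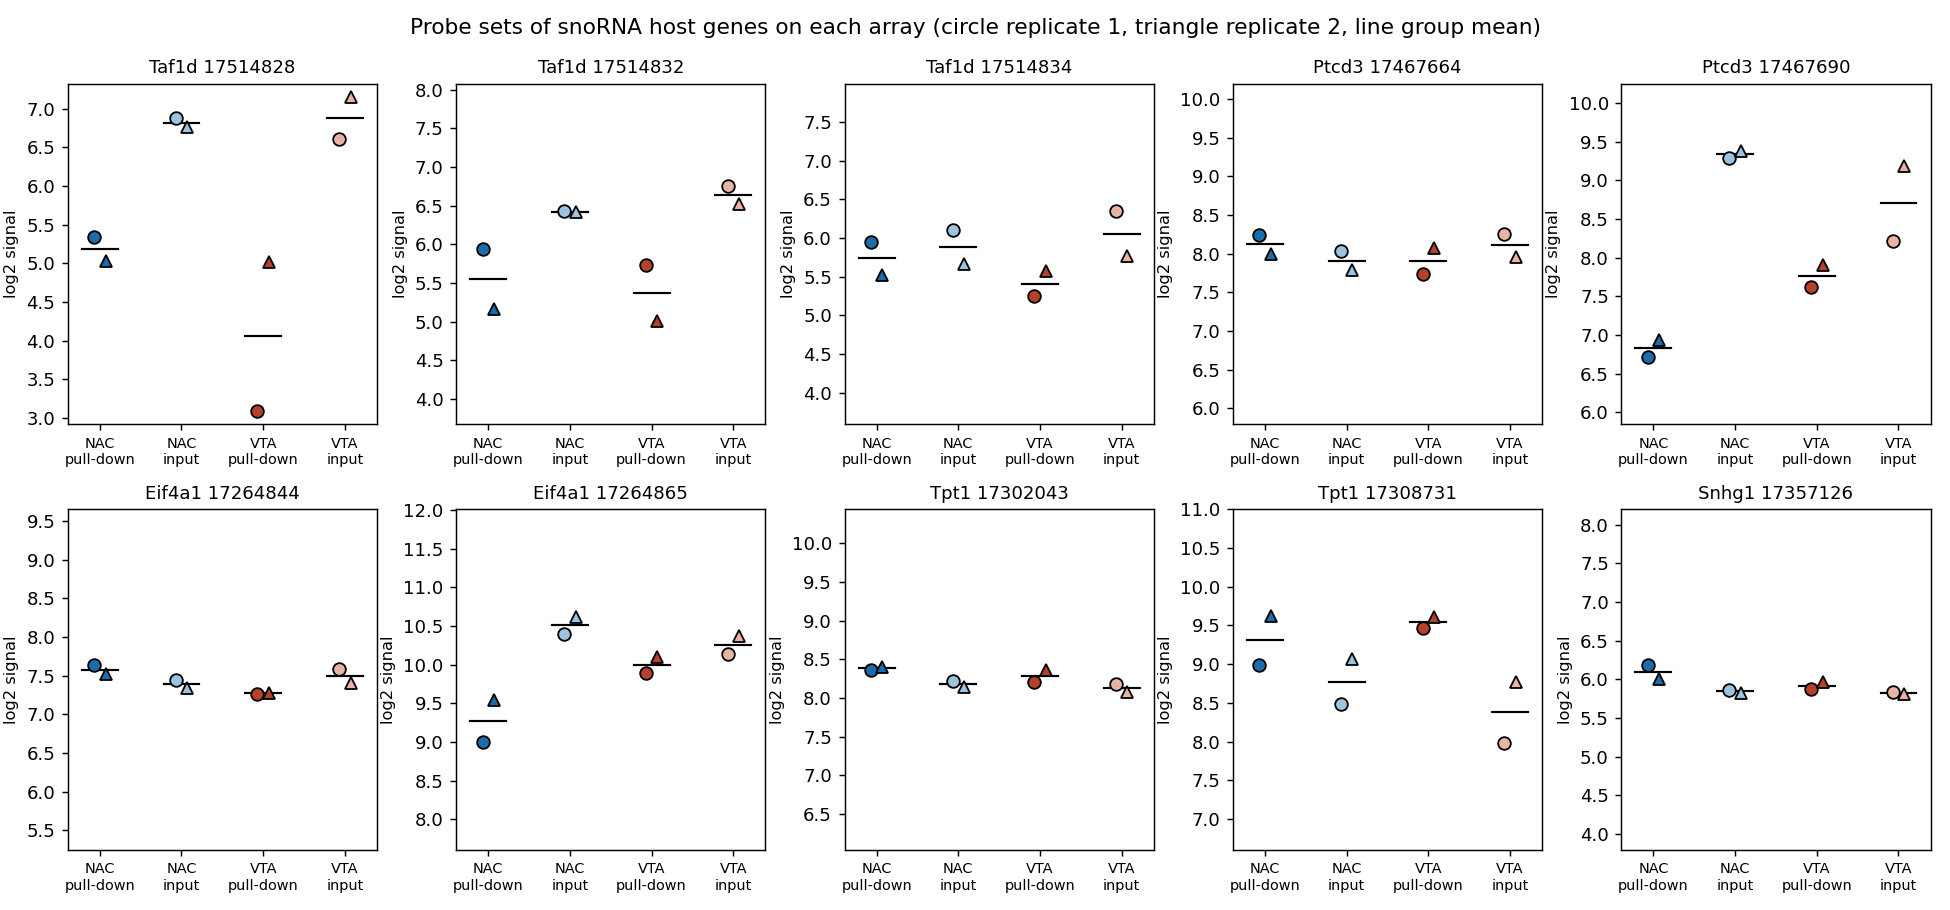
Log2 signal (vertical axes, each spanning the same range) of the 10 probe sets of the host genes that passed the filter, in the NAC pull-downs, NAC inputs, VTA pull-downs and VTA inputs. Circles are replicate 1, triangles replicate 2 and lines the mean of 2 arrays; Ptcd3 17467690 lies lower in all pull-downs, while Ptcd3 17467664 overlaps between the groups.

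Snhg1, a long noncoding RNA gene and the only noncoding host with a member, was slightly higher in the pull-downs. Its probe set 17357126 had 6.18 and 6.002 in NAC pull-downs, against 5.86 and 5.83 in NAC inputs, and 5.87 and 5.96 in VTA pull-downs, against 5.84 and 5.81 in VTA inputs. All 4 pull-downs lay above all 4 inputs, by 0.25 on the log2 scale with NAC and by 0.09 with VTA. All inputs were just under their array medians, so the level is near the lower end of what was tested.

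Eif4a1 codes for the RNA helicase of the cap-binding complex that opens messenger RNA for initiation. Its probe set 17264865 had 8.995 and 9.54 in NAC pull-downs, against 10.40 and 10.62 in NAC inputs, and 9.89 and 10.09 in VTA pull-downs, against 10.14 and 10.37 in VTA inputs. All 4 pull-downs lay below all 4 inputs, but the NAC difference was -1.24 and the VTA difference -0.26. The other probe set, 17264844, had 7.64 and 7.52 in NAC pull-downs, against 7.45 and 7.34 in NAC inputs, and 7.26 and 7.28 in VTA pull-downs, against 7.58 and 7.40 in VTA inputs. With NAC both pull-downs lay above both inputs, by 0.19, and with VTA both lay below, by a difference of -0.22 as deposited and of -0.08 after quantile normalization. Averaged over the targets it differed by -0.02, and by 0.08 after quantile normalization.

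Tpt1 codes for the translationally controlled tumour protein, an abundant growth-related protein whose messenger RNA is a known example of a transcript with a 5′ terminal pyrimidine tract. Its 2 probe sets were both higher in the pull-downs, by amounts that differed. Probe set 17308731 had 8.99 and 9.62 in NAC pull-downs, against 8.48 and 9.06 in NAC inputs, and 9.47 and 9.61 in VTA pull-downs, against 7.98 and 8.77 in VTA inputs. The averaged difference was 0.85, a 1.80-fold higher level, although 1 NAC pull-down lay below 1 NAC input. Probe set 17302043 had 8.37 and 8.40 in NAC pull-downs, against 8.22 and 8.14 in NAC inputs, and 8.21 and 8.36 in VTA pull-downs, against 8.19 and 8.08 in VTA inputs. Its averaged difference was 0.18, and within each target both pull-downs lay above both inputs.

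Ptcd3 codes for a pentatricopeptide repeat protein of the mitochondrial ribosome, and Snord94 is the snoRNA gene within it. Its probe set 17467690 had 6.72 and 6.93 in NAC pull-downs, against 9.29 and 9.38 in NAC inputs, and 7.63 and 7.90 in VTA pull-downs, against 8.22 and 9.18 in VTA inputs. The groups did not overlap, and the difference was -2.51 with NAC and -0.94 with VTA. The first VTA input was about 1 log2 unit below the second, and without it the VTA difference was -1.42. The other probe set, 17467664, had 8.25 and 7.99 in NAC pull-downs, against 8.04 and 7.78 in NAC inputs, and 7.74 and 8.07 in VTA pull-downs, against 8.26 and 7.96 in VTA inputs. These groups overlapped. The difference was 0.21 with NAC and -0.20 with VTA, so that the averaged difference was 0.00.

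Taf1d codes for a subunit of the selectivity factor that places RNA polymerase I on ribosomal DNA. Its probe set 17514828 had 5.35 and 5.02 in NAC pull-downs, against 6.88 and 6.76 in NAC inputs, and 3.10 and 5.01 in VTA pull-downs, against 6.61 and 7.15 in VTA inputs. The averaged difference was -2.23, and 1 VTA pull-down lay far below the other. Without that array the VTA difference was -1.87 and without the other -3.78, where the full value was -2.82. Probe set 17514832 had 5.94 and 5.16 in NAC pull-downs, against 6.43 and 6.41 in NAC inputs, and 5.73 and 5.01 in VTA pull-downs, against 6.75 and 6.52 in VTA inputs, an averaged difference of -1.07. In both probe sets all pull-downs lay below all inputs. All but 1 of these pull-down values were under the array medians, so the sizes are not exact.

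The third tested probe set of Taf1d, 17514834, had 5.95 and 5.53 in NAC pull-downs, against 6.11 and 5.66 in NAC inputs, and 5.25 and 5.57 in VTA pull-downs, against 6.34 and 5.77 in VTA inputs. Its NAC groups overlapped and its VTA groups did not, with differences of -0.14 and -0.65. The other 8 probe sets of Taf1d ran from 2.26 to 5.90 over all arrays, and their averaged differences from -0.55 to 0.16 with a median of 0.08. In none of these 8 were the 4 pull-downs apart from the 4 inputs. Probe sets 17288059 and 17514836 held the same values on every array, so the 18 members give 17 separate measurements.

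**Figure D2:**
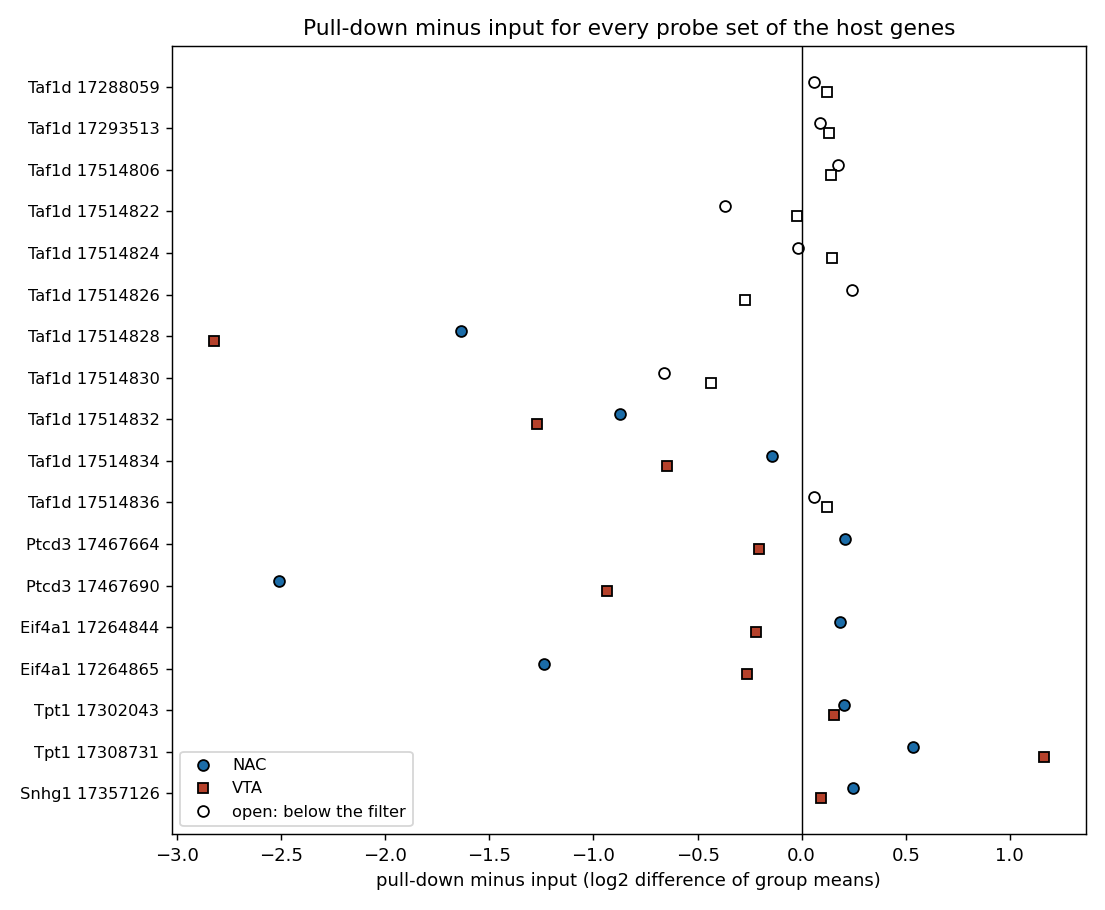
Pull-down minus input (horizontal axis, log2 difference of the means of 2 arrays) for all 18 probe sets, with NAC as circles and VTA as squares. Open symbols are probe sets below the filter; Ptcd3 17467690 is at -2.51 with NAC and -0.94 with VTA, and Taf1d 17514828 at -1.63 and -2.82.

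The disagreement within a gene was set against all 404 genes with several tested probe sets, as the highest minus the lowest averaged pull-down minus input difference of the gene. The median over these genes was 0.34. Taf1d had 1.83 over 3 tested probe sets and Ptcd3 1.73 over 2, ranks 1 and 2 of the 404. Of these genes 361 had 2 tested probe sets, and a highest minus lowest difference can only grow as probe sets are added. Without a filter Taf1d had 2.39 (rank 1 of 1082) and Ptcd3 1.73 (rank 3). The ranks of Taf1d and Ptcd3 turned on the filter and on single arrays, and in some fits neither was first. With the second VTA input left out, Taf1d had 1.56 (rank 4) and Ptcd3 1.41 (rank 6). With a filter of at least 4 of 8 arrays above the median, which removes Taf1d 17514834, Taf1d had 1.16 (rank 8 of 359) and Ptcd3 had 1.73 (rank 1). Without the first VTA pull-down Taf1d had 1.44 (rank 5) and Ptcd3 1.74 (rank 1), and over the arrays left out in turn their spreads ran from 1.44 to 2.23 and from 1.41 to 2.04. Eif4a1 had 0.73 and Tpt1 0.67, ranks 65 and 81, where the 90th percentile of the genes was 0.81. The genes were chosen by this quantity, so it is given as a description only.

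**Figure D3:**
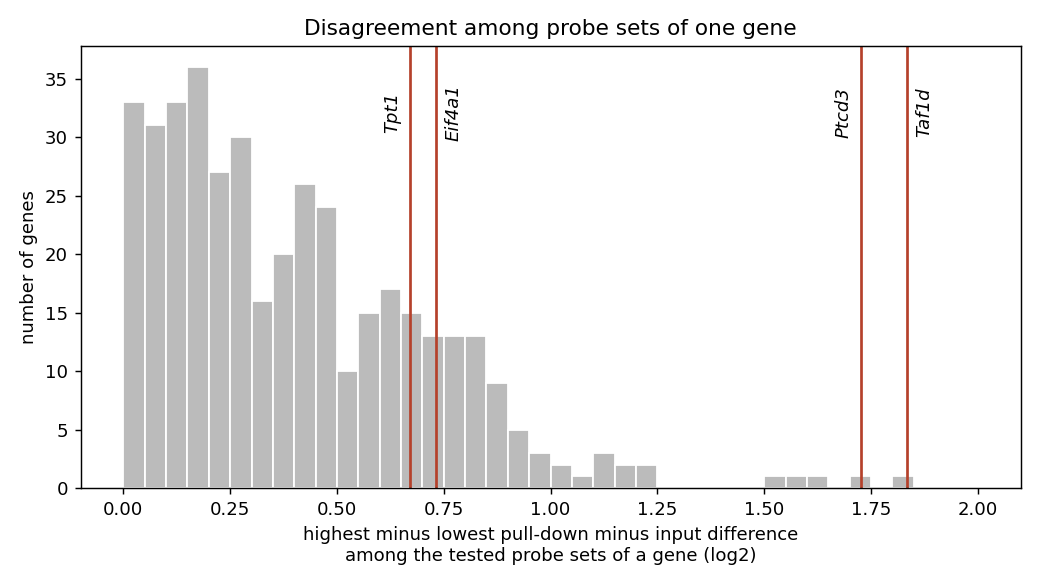
Number of genes (vertical axis) by the highest minus the lowest pull-down minus input difference among their tested probe sets (horizontal axis, log2), for 404 genes. Lines mark Tpt1 at 0.67, Eif4a1 at 0.73, Ptcd3 at 1.73 and Taf1d at 1.83.

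The next comparison was between cells labelled from VTA and cells labelled from NAC, a contrast that the choice of the genes did not use and that is independent of the averaged pull-down minus input difference in this balanced design. It is not independent of that difference within 1 target. In pull-downs, 0 of the 10 tested members passed in limma (Benjamini-Hochberg over 12445 probe sets, of which 2.19% passed), and 4 had an unadjusted p under 0.05, as did 16% of all tested probe sets. Eif4a1 17264865 was 9.99 ± 0.14 in VTA pull-downs and 9.27 ± 0.39 in NAC pull-downs (SD, n = 2 each), a difference of 0.72 (SE 0.18, limma adjusted p = 0.073). Both VTA arrays lay above both NAC arrays. Ptcd3 17467690 was 7.76 ± 0.19 in VTA pull-downs and 6.83 ± 0.15 in NAC pull-downs, a difference of 0.94 (SE 0.25, limma adjusted p = 0.10), again without overlap.

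Eif4a1 17264844 went the opposite way, with 7.27 ± 0.01 in VTA pull-downs and 7.58 ± 0.08 in NAC pull-downs, a difference of -0.31 (SE 0.10, limma adjusted p = 0.18). Taf1d 17514828 differed by -1.13 (SE 0.47, limma adjusted p = 0.28), a value that the low first VTA pull-down moves. Some of these differences passed when 1 array was left out, but 1 group then held a single array, so only the differences are given. Eif4a1 17264865 differed by 0.999 without the second NAC pull-down. Ptcd3 17467690 stayed at 0.94 without either VTA input, since the inputs enter only its SE. Taf1d 17514828 differed by -2.09 without the second VTA pull-down, where the low first array at 3.10 stands alone, and by -0.17 without the first. All its pull-downs were under the array medians, and the inputs alone brought it past the filter. Over the leave-one-out fits the difference of Taf1d 17514828 ran from -2.09 to -0.17, that of Eif4a1 17264865 from 0.45 to 0.999 and that of Ptcd3 17467690 from 0.80 to 1.07. The other tested probe sets lay between -0.33 (Taf1d 17514834) and 0.23 (Tpt1 17308731).

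In inputs, 0 of the 10 tested members passed in limma (1.41% of all tested probe sets did), and 1 had an unadjusted p under 0.05, as did 10.6% of all tested probe sets. That was Ptcd3 17467690 with 8.70 ± 0.68 in VTA inputs and 9.34 ± 0.06 in NAC inputs, a difference of -0.64 (SE 0.25, limma adjusted p = 0.41). The first VTA input held most of it, since the difference was -0.16 without that array and -1.12 without the second. The input differences of the other 9 ran from -0.39 (Tpt1 17308731) to 0.22 (Taf1d 17514832).

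**Figure D4:**
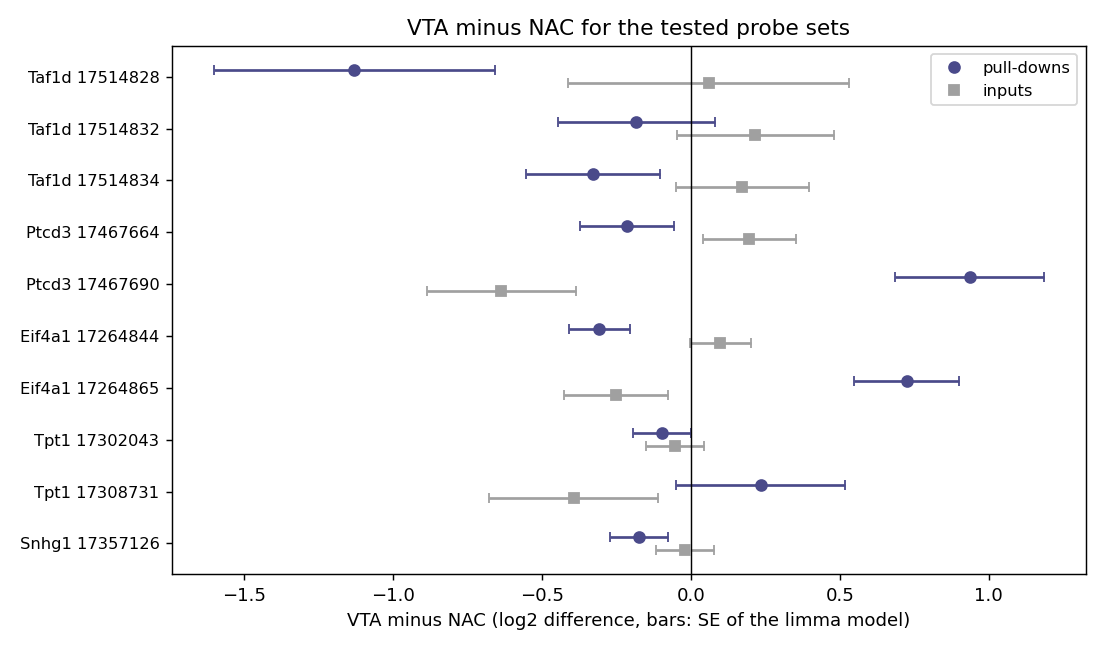
VTA minus NAC (horizontal axis, log2 difference with the SE of the limma model) for the 10 tested probe sets, in pull-downs (circles) and inputs (squares), 2 arrays per group. Ptcd3 17467690 is at 0.94 in pull-downs and -0.64 in inputs, and none of the differences passed an adjusted p of 0.05.

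The members fell into unlike profiles over the 8 arrays. Pearson's r is given as a description, since all profiles share the same 8 arrays and their split into pull-downs and inputs. Ptcd3 17467690 and Eif4a1 17264865 had r = 0.94 with each other, while each had a negative r with the other probe set of its own gene, -0.34 for Ptcd3 and -0.56 for Eif4a1. The other probe sets of these genes, Ptcd3 17467664 and Eif4a1 17264844, had r = 0.79. Taf1d 17514828 had r = 0.70 with Taf1d 17514832 and 0.71 with Taf1d 17514834.

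For the member of each gene with the lowest averaged difference, the most similar probe sets of other genes were as follows. Ptcd3 17467690 lay nearest to the noncoding RNA gene Miat (r = 0.98), to Ech1 and to the astrocytic glutamate transporter gene Slc1a2 (r = 0.97 each). Eif4a1 17264865 lay nearest to Ech1 (r = 0.97), Abca2 and Sp1 (r = 0.96 each). Taf1d 17514828 lay nearest to Drp2, Mgat5 and Mars1 (r = 0.99 each). Tpt1 17302043 lay nearest to Hoxd8 (r = 0.98), Dek and Zcchc17 (r = 0.97 each), and Snhg1 17357126 to Mtfr1l (r = 0.98), Timm23 (r = 0.97) and Smim26 (r = 0.96).

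Of the 27 snoRNA genes within the hosts, 3 had a probe set of their own, and 2 of these were tested. Snord47, within Gas5, had 4.65 and 4.33 in NAC pull-downs, against 8.01 and 8.13 in NAC inputs, and 4.82 and 4.81 in VTA pull-downs, against 7.42 and 7.84 in VTA inputs. All pull-downs were under the array medians, and the inputs alone brought Snord47 past the filter. Its averaged difference of -3.20 is therefore given without a test, and its size is not exact. Snord22, within Snhg1, had 6.57 and 6.21 in NAC pull-downs, against 7.65 and 7.94 in NAC inputs, and 7.39 and 7.42 in VTA pull-downs, against 6.71 and 7.78 in VTA inputs. It fell by 0.62 (SE 0.20, limma adjusted p = 0.033), while its host Snhg1 was 0.17 higher.

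The NAC difference of Snord22 was -1.41 and its VTA difference 0.16. Its call was lost after quantile normalization, without a filter, and when any 1 array other than the first NAC pull-down or the first VTA input was left out (limma adjusted p = 0.0045 to 0.11 over 13 alternatives). Over the 8 arrays Snord22 had r = 0.85 with Ptcd3 17467690 and 0.80 with Eif4a1 17264865, and -0.66 with Snhg1. Snora31, within Tpt1, was below the filter, with 3.60 and 4.08 in NAC pull-downs, against 4.40 and 4.14 in NAC inputs, and 3.31 and 3.16 in VTA pull-downs, against 4.26 and 4.18 in VTA inputs. Its pull-downs lay under all inputs, whereas both probe sets of Tpt1 were higher in the pull-downs.

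The other snoRNA host genes were taken as every gene of the table that contains a snoRNA gene, 489 genes, of which 372 had a probe set with 1 symbol. Of their 325 tested probe sets, 27 rose and 125 fell in the pull-downs (8.31% and 38.5%, against 10.3% and 30.2% of all tested probe sets). Their median difference was -0.13, against -0.10 over all. The 325 stand for 291 genes, and some probe sets of 1 gene share the same difference, such as several of Rps12 at 0.18. They are therefore not all separate measurements. After quantile normalization 38 rose and 101 fell (11.7% and 31.1%), with a median of -0.08. A hand-written list of hosts, chosen after the data were seen, did not lean towards falls. Of its 61 tested probe sets, which stand for 44 genes and include those of Rps12, 10 rose and 11 fell (16.4% and 18%), with a median of 0.02. Of the 325 probe sets, 2 were higher and 2 lower between VTA and NAC pull-downs (1.23%, against 2.19% of all tested probe sets). Between the inputs 0 of the 325 were higher and 1 lower (0.308%, against 1.41%). The hand-written list had 0 calls in either comparison.

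Among these hosts the largest falls were those of the serotonin receptor gene Htr2c at -0.97 (SE 0.10, limma adjusted p = 0.00033), the chromatin remodelling gene Ep400 at -0.93 (SE 0.12, limma adjusted p = 0.00080) and the small GTPase gene Rab2b at -0.89 (SE 0.10, limma adjusted p = 0.00052). A second probe set of Ep400 fell by 0.27. The largest rises were those of the ribosomal protein gene Rpl4 at 1.48 (SE 0.30, limma adjusted p = 0.0054) and of 2 probe sets of the heat shock cognate gene Hspa8 at 1.37 each (SE 0.28, limma adjusted p = 0.0057). These 2 Hspa8 probe sets had nearly the same value on every array, such as 10.44 and 10.45 in the first NAC pull-down, so they are close to 1 measurement. Other probe sets of Rpl4 and Hspa8 disagreed with these rises, since Rpl4 17518298 was at -0.12, Hspa8 17516365 at -0.14 and Hspa8 17434475 at 0.48.

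Rpl4 17548759 had 7.56 and 8.45 in NAC pull-downs, against 6.62 and 7.57 in NAC inputs, and 8.37 and 8.77 in VTA pull-downs, against 5.92 and 7.12 in VTA inputs. The second array of each of its groups was the higher one. The profile of Tpt1 17308731 was close to it (r = 0.99 over the 8 arrays) and to both Hspa8 probe sets (r = 0.99 each), and in Tpt1 17308731 too the second array of each group was the higher one. The first VTA input was the lowest of the 8 arrays in all of them.

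**Figure D5:**
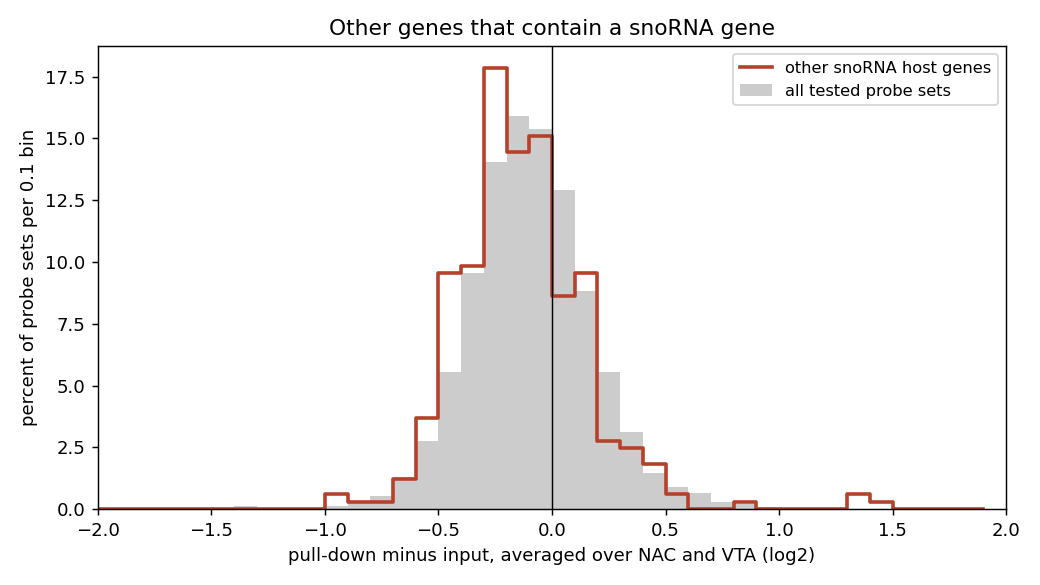
Percent of probe sets (vertical axis) by averaged pull-down minus input difference (horizontal axis, log2, bins of 0.1), for 325 tested probe sets of other snoRNA host genes (line) and all 12445 tested probe sets (bars). The medians are -0.13 and -0.10, and the separate points of the line above 1 are the probe sets of Rpl4 and Hspa8.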

How the data were processed

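The deposited table holds 1 log2 value per probe set and array, for 8 arrays in 4 groups of 2. Per the submitters' processing notes the authors made it with Transcriptome Analysis Console; its version and its background, summarization and normalization settings were not given in the sources used here. Values were used as deposited. Arrays carry no read depth, and their number limits the precision. Probe sets were named through the supplied platform annotation: 23521 of 41345 had 1 symbol, 1814 had several, which were not named, and the rest had none.

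Group means were estimated over all 8 arrays in R 4.3.3 with limma 3.58.1 (lmFit and eBayes; 4 residual degrees of freedom, 5.47 added by moderation), with 2-sided tests and Benjamini-Hochberg adjustment over 12445 probe sets at 0.05. The fit was tested on simulated data. The members and lists were chosen with earlier results of these data known. SnoRNA hosts came from the positions in the RefSeq gene table of GRCm38.p6, without strand, which that table does not give, although the design asked for the same strand. Named genes were all members, snoRNAs within them, the 3 highest and 3 lowest of the other hosts, and the 3 nearest profiles per gene. Other scalings, filters, replicate blocks and leaving out each array were tried.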

Additional observations from a re-analysis of the deposited data

Results flagged for a closer look

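Eif4a1 17264844 moved in opposite ways under the same contrast. Its pull-down minus input difference was 0.19 with NAC, where both pull-downs lay above both inputs, and -0.22 with VTA, where both pull-downs lay below both inputs. The VTA value was -0.08 after quantile normalization, and leaving out the first VTA input gave -0.13, the second -0.31. The difference between the targets was not tested, and both values as deposited are under 0.25 on the log2 scale.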

How the results depend on the processing

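Of 645 repeats of a member difference or of the spread within a gene, 267 left the value as it was, for example where the array left out does not enter it. Of all repeats, 18 were marked as moving the value by more than the spread between replicates, all of them of a pull-down minus input difference. Leaving out the first VTA pull-down took the VTA difference of Taf1d 17514828 from -2.82 to -1.87, which was marked. It took its VTA minus NAC pull-down difference from -1.13 to -0.17, which was not. The count therefore does not show how steady the VTA minus NAC values are. Some repeats passed where the main value did not. The sign turned in 21 repeats, in 10 of 54 results, none of which was called. Without a filter the VTA minus NAC pull-down comparison called 114 probe sets, against 273, and the other hosts 101, against 152; more probe sets are then tested. The hand-written list of hosts had 21 calls (10 higher and 11 lower) among 61 tested probe sets. Of the snoRNAs within the hosts Snord22 passed as deposited and did not after quantile normalization. Snord47, which the inputs alone brought past the filter, is not counted here. The range of calls for the snoRNAs given next does count Snord47, and the call that comes and goes in it is that of Snord22. When each array was left out in turn, calls ran from 3105 to 5239 for averaged pull-down minus input, from 125 to 1755 for NAC, from 368 to 3778 for VTA, from 147 to 277 for VTA minus NAC pull-down, from 101 to 202 for VTA minus NAC input, from 95 to 156 for the other hosts and from 1 to 2 for the snoRNAs; an arm of 1 array is assumed to vary like the others. The averaged count was lowest without the first VTA input and nearly as low without the first NAC input. The cause was not tested. Same-numbered arrays deviated at r = 0.33 (NAC pull-down and NAC input), 0.28 (both inputs), 0.21 (NAC pull-down and VTA input), -0.04 (VTA pull-down and VTA input), -0.09 (VTA pull-down and NAC input) and -0.14 (both pull-downs); the labels give no shared source, so the numbers were not taken as pairs. With the replicate number as a block within each target 5165 probe sets differed between pull-down and input, against 5040. With the replicate block over all groups 267 differed between the pull-downs and 177 between the inputs, and Eif4a1 17264865 (limma adjusted p = 0.014) and Ptcd3 17467690 (limma adjusted p = 0.045) passed between the pull-downs. With the VTA numbers crossed, chosen after the data were seen, the replicate block called 410. Runs of C and T that begin within 5 bases of the start had 3 bases in Taf1d, 4 in Ptcd3 and 2 in Eif4a1 and were as given in the others. The filter and the block do not enter the levels of the members.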
